A study of Mus musculus with 8 samples.

Results

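Il1rapl2, Chrm3, Kcnb2, Gabra4, Nlgn1, Magi2, Matn4 and Wwtr1 were examined in single-cell RNA libraries of mouse bone marrow. These 8 of the 25906 genes in the count matrices were chosen on these data, because their counts were higher in megakaryocytes (Mk) of the old libraries and they were high in stem-like or other cells. Their age differences in Mk and in stem-like cells, most of which came from old libraries, and their levels across cell classes are therefore given as a description without a test. Tests of the 8 genes were kept for sex and bone in Mk, and tests of age for genes outside the 8.

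All mice were C57BL/6. Young mice were 3 months old and old mice over 24 months, and no mouse carried a transgene or received a treatment according to the labels. The animals of each age and sex were pooled before sorting, with 6 mice in each of 3 pools and 5 in the pool of old males. Cells bearing the Mk surface proteins CD41 and CD42d were enriched on magnetic beads and by flow sorting, and each of the 4 pools gave 1 femur and 1 tibia library. Both libraries of a group thus came from the same mice, so that the spread between them is a spread between bones of 1 pool, and p-values leave out the spread between mice.

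The 8 libraries held 20707363 to 104436964 unique molecular identifiers (UMIs) over 48290 barcodes, of which 23222 passed the cell filter. Clusters were named from marker lists, with the 8 genes left out of the genes used for clustering. Mk made up 8649 cells in 7 clusters, and all 13 Mk markers had counts in the Mk of every library. A single cluster of 314 cells was called HSC/MPP-like, after haematopoietic stem cells and multipotent progenitors, because 15 of 18 markers of these cells were raised in it, with Mecom and Hlf among its 10 leading genes. Il1rapl2, Kcnb2, Chrm3 and Magi2 were also among those 10 genes. Old libraries held more of these cells. They were 3.06% and 1.07% of kept cells in old females (femur, tibia) and 4.74% and 3.12% in old males, against 0.0273% and 0.0944% in young females and 0.540% and 0.362% in young males. The young female libraries thus held 1 and 3 such cells. Scrublet marked 172 cells (0.741%) as doublets, which were kept, and no pair of libraries shared more than 8 barcodes among the kept cells.

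Haematopoietic stem cells stand at the head of blood formation, and Mk are the large marrow cells that shed platelets. Stem cells and Mk are known to share part of their programme, including von Willebrand factor, and the stem cell compartment of the mouse is known to grow with age and to lean toward platelet formation. Most of the 8 genes are better known from neurons. Il1rapl2 encodes an interleukin-1 receptor family protein, Chrm3 the M3 muscarinic acetylcholine receptor, Kcnb2 a voltage-gated potassium channel subunit and Gabra4 the alpha-4 subunit of GABA-A receptors. Nlgn1 encodes neuroligin-1, a synaptic adhesion protein, and Magi2 a membrane-bound scaffold protein. Matn4 encodes the matrix protein matrilin-4, and Wwtr1 encodes TAZ, the coactivator of TEAD factors that the Hippo pathway holds in check.

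By the GENCODE M21 annotation of mm10, all 8 genes are protein-coding. Il1rapl2 lies on chromosome X (137570608 to 138846946, plus strand), Chrm3 on chromosome 13 (9875486 to 10360847, minus strand) and Kcnb2 on chromosome 1 (15287254 to 15723750, plus strand). Gabra4 lies on chromosome 5 (71569749 to 71658308, minus strand), Nlgn1 on chromosome 3 (25426215 to 26332460, minus strand) and Magi2 on chromosome 5 (19227036 to 20704792, plus strand). Matn4 lies on chromosome 2 (164389393 to 164405160, minus strand) and Wwtr1 on chromosome 3 (57455649 to 57575910, minus strand). The submitters' processing notes name both mm10 and GRCm39, so these positions describe mm10 and may not be those used for counting. Reads in Kcnb2 could also be assigned to Gm37138 and Gm38116, which overlap it on the same strand, and reads in Chrm3 to 9330159N22Rik and Gm47411.

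Most members are long genes. Magi2 spans 1478 kb, Il1rapl2 1276 kb, Nlgn1 906 kb, Chrm3 485 kb and Kcnb2 436 kb, and each of these 5 is longer than at least 98.4% of the genes tested in Mk. Wwtr1 (120 kb) and Gabra4 (88.6 kb) are longer than 89.4% and 84.4%, whereas Matn4 spans 15.8 kb, and 39.9% of tested genes are shorter. Annotated exons cover 0.368% of Il1rapl2, 0.768% of Magi2 and 32.8% of Matn4. Length moved with age among all genes. The median length was 22.4 kb over the genes tested in Mk and 42.8 kb over those called higher in old Mk, and 20.8% of the 419 genes over 300 kb were called higher against 6.69% of the 13509 shorter ones. In HSC/MPP-like cells the shares were 21.8% of 243 and 1.69% of 7140. The part of gene length in the members' differences was not tested.

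Promoters were taken from RefSeq (GRCm38.p6), which held entries for Il1rapl2, Chrm3, Gabra4, Nlgn1, Magi2, Matn4 and Wwtr1, and none was used for Kcnb2. In the 250 bases before the start, motifs of blood and Hippo transcription factors were searched on both strands. The GATA motif (AGATAA or TGATAA) was found in Matn4, and in 16.6% of 32851 promoters. The TEAD motif (GGAATG), the site bound by the partners of TAZ, was found in Wwtr1 itself and in 12.6% of promoters. The ETS motif (AGGAAG or CCGGAA) was found in Chrm3 (2 matches), Nlgn1, Wwtr1 and Magi2 and in 38.2% of promoters, and the RUNX motif (TGTGGT) in Gabra4 and Magi2 and in 14.0% of promoters. The MEIS motif (TGACAG) and the AP-1 motif (TGANTCA) matched no window of these 7 genes, and 15.9% and 6.75% of promoters held them. The E-box (CANNTG) was found in Matn4 and Magi2, against 66.2% of promoters. The GC content of the 7 windows ran from 53.6% (Nlgn1) to 72.0% (Magi2), with a median of 52.4% over all promoters. The windows of Matn4 (chr2:164405161-164405410), Wwtr1 (chr3:57575911-57576160) and Gabra4 (chr5:71658309-71658558), all on the minus strand, are shown because they hold the GATA, TEAD and RUNX matches and end where RefSeq and GENCODE place the same start. They are written 5′ to 3′ with matches to the motifs other than the E-box in capitals.
Matn4: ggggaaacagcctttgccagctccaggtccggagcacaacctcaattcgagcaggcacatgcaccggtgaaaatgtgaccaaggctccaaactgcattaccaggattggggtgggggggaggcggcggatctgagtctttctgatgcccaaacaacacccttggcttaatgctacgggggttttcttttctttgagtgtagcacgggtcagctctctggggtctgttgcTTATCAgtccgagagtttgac
Wwtr1: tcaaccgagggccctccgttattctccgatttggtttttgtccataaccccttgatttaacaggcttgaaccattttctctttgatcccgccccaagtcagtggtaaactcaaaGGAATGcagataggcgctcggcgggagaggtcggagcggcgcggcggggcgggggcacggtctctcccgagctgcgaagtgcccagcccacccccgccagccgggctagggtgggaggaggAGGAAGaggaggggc
Gabra4: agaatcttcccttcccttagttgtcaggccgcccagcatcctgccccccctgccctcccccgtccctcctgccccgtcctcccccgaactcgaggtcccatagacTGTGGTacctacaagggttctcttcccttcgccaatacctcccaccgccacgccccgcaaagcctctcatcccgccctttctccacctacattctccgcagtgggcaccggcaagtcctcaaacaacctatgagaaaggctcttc

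Levels are given in CPM, the UMIs of a gene per 1000000 UMIs of all genes, summed over the cells of a class in a library. They are not scaled for gene length, so that they are compared within a gene. Il1rapl2, Chrm3, Magi2, Kcnb2 and Matn4 were highest in HSC/MPP-like cells. Over the 4 libraries with at least 20 such cells, the mean level was 1951 CPM ± 985 (SD) for Il1rapl2, 935 ± 832 for Chrm3, 894 ± 471 for Magi2, 840.5 ± 869 for Kcnb2 and 62.7 ± 48.1 for Matn4. Of those libraries only the young male femur library was young, with 25.9 CPM of Kcnb2 and 1.99 of Matn4, so that these means are mainly those of old cells. Over the 8 Mk libraries, young and old alike, these genes averaged 35.4 ± 38.7, 25.5 ± 22.4, 46.6 ± 36.3, 4.66 ± 5.11 and 0.985 ± 1.17 CPM. The gap between the 2 classes thus also holds a difference in age. For Il1rapl2, Chrm3, Magi2 and Kcnb2 the lowest of the 4 stem-like libraries lay above the highest Mk library, while for Matn4 the young male femur library (1.99 CPM) lay within the Mk range. In macrophage-like cells the 5 genes averaged 0 to 2.56 CPM. Not every other class was that low. In endothelial/stromal-like cells Magi2 (60.6 CPM ± 58.2), Matn4 (6.61 ± 5.33) and Kcnb2 (6.29 ± 17.4, from 3 cells) averaged more than in Mk. Chrm3 (12.0 ± 15.5) and Il1rapl2 (7.12 ± 9.46) averaged less there than in Mk.

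Wwtr1, Nlgn1 and Gabra4 were highest outside the stem-like cells. Wwtr1 averaged 251 CPM ± 71.2 in endothelial/stromal-like cells (SD, n = 8 libraries), whose lowest library (156 CPM) lay above the highest stem-like library (113 CPM). Nlgn1 averaged 73.8 ± 61.2 CPM there, but its range (13.2 to 171) overlapped that of stem-like cells (0 to 32.2). Gabra4 averaged 27.3 CPM ± 20.9 in plasma cell-like cells (n = 7), overlapping the stem-like range of 1.99 to 41.0. Next to these, Chrm3 stood at 28.9 CPM ± 9.88 in mature neutrophil-like cells (n = 8), close to its mean in Mk.

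**Figure D1:**
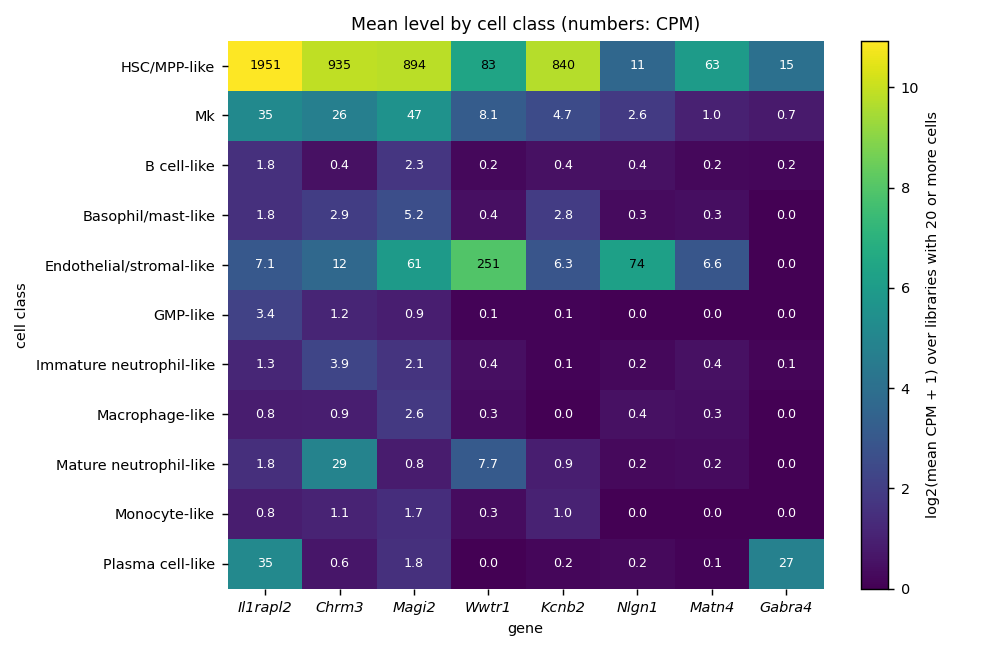
Mean level of the 8 genes (columns) in 11 cell classes (rows), as CPM averaged over the libraries with at least 20 cells of the class; colour gives log2(CPM + 1) and the numbers give CPM. Il1rapl2 reaches 1951 CPM in HSC/MPP-like cells and 35 in Mk, and Wwtr1 is highest in endothelial/stromal-like cells, at 251 CPM. The HSC/MPP-like libraries averaged here are old except that of the young male femur, whereas the Mk libraries are of both ages.

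Detection per cell was also high in stem-like cells. Il1rapl2 was found in 92.4% of HSC/MPP-like cells, Magi2 in 77.7%, Chrm3 in 63.4%, Wwtr1 in 52.5%, Matn4 in 49.4% and Kcnb2 in 44.6%, whereas Gabra4 (8.28%) and Nlgn1 (6.69%) were rare. Wwtr1 was found in 48.0% of endothelial/stromal-like cells, at a median of 3706 UMIs per cell, where its CPM was higher. The shares of HSC/MPP-like cells pool 268 old and 46 young cells and are mainly those of old cells, since Kcnb2 was found in 51.9% of old and 2.17% of young ones, Matn4 in 57.1% and 4.35%, and Il1rapl2 in 96.3% and 69.6%. Macrophage-like cells, at a median of 8233 UMIs per cell against 13800 in HSC/MPP-like cells and 20960 in Mk, gave 0% (Kcnb2, Gabra4) to 2.17% (Magi2). Cells with at least 1000 UMIs were then thinned to 1000 UMIs, and cells with fewer were left out. This kept all 314 HSC/MPP-like cells, 7922 of 8649 Mk and 1916 of 1933 macrophage-like cells. Il1rapl2 remained in 71.7%, Magi2 in 44.3% and Chrm3 in 36.9% of HSC/MPP-like cells, against 3.06%, 3.09% and 1.74% of Mk and 0.157%, 0.261% and 0.0522% of macrophage-like cells.

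All 8 genes passed the filter on low counts in Mk, Kcnb2, Matn4, Nlgn1 and Gabra4 of them through the old libraries. All 8 were called higher in old Mk by edgeR's quasi-likelihood test with Benjamini-Hochberg adjustment, as their choice required. Nothing is read from this count. Of the 13950 genes tested, 998 (7.15%) were called higher, and in 883 (6.33%) every old library lay above every young one. The members' differences below are log2 differences of old minus young over both sexes, with their standard errors.

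Among the receptors, Il1rapl2 stood at 10.4 and 4.61 CPM in Mk of young females (femur, tibia) and at 44.3 and 23.3 in old females. In males it stood at 10.8 and 5.70 CPM in young and 71.4 and 112 in old Mk. The age groups did not overlap, the old male libraries were the highest, and the log2 difference was 2.84 (SE 0.31). Chrm3 stood at 3.95 and 2.17 CPM in young and 45.1 and 41.1 in old females, and at 8.18 and 6.33 CPM in young and 40.5 and 56.7 in old males. Its log2 difference was 3.28 (SE 0.18), and young females were the lowest group. Gabra4 was near the detection limit, with 0.0790 and 0 CPM in young and 0.463 and 1.48 in old females, and 0.183 and 0.0351 CPM in young and 1.55 and 1.89 in old males (log2 difference 4.15, SE 0.69). Its 13 UMIs in young Mk and 103 in old Mk came from 8 and 58 cells.

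Kcnb2, the channel subunit, had 1.19 and 0.0678 CPM in Mk of young females and 11.4 and 8.31 in old females. In males it had 0.201 and 0.140 CPM in young and 4.20 and 11.7 in old Mk, a log2 difference of 4.77 (SE 0.52) over both sexes. The young female femur library alone among the young ones exceeded 1 CPM, and the 2 old male libraries differed more from each other than the 2 old female ones.

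The adhesion and scaffold genes showed the same order of libraries by age. Magi2 stood at 13.3 and 12.9 CPM in young and 93.2 and 88.7 in old female Mk, and at 14.6 and 13.8 CPM in young and 70.1 and 65.9 in old male Mk. It had the smallest log2 difference of the 8 (2.51) and the smallest error (SE 0.07), with the 2 bones of each pool close together. Nlgn1 stood at 0.316 and 0.203 CPM in young and 2.55 and 7.57 in old females, and at 0.493 and 0.456 CPM in young and 4.29 and 5.27 in old males (log2 difference 3.73, SE 0.38).

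Matn4, the matrix gene, had 0 UMIs in both young female Mk libraries, which allows up to 0.237 and 0.203 CPM at 3 counts per library, and 1.08 and 1.48 CPM in old females. With 24 UMIs in old females, its level was at least 11.1-fold higher than the 3 counts allowed over both young libraries. In males it had 0.164 and 0.0702 CPM in young and 1.80 and 3.28 in old Mk, a 20.4-fold difference of the pooled levels. Wwtr1, the Hippo effector, stood at 1.19 and 0.542 CPM in young and 13.1 and 13.2 in old females, and at 1.66 and 1.65 CPM in young and 18.9 and 14.9 in old males (log2 difference 3.63, SE 0.16).

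**Figure D2:**
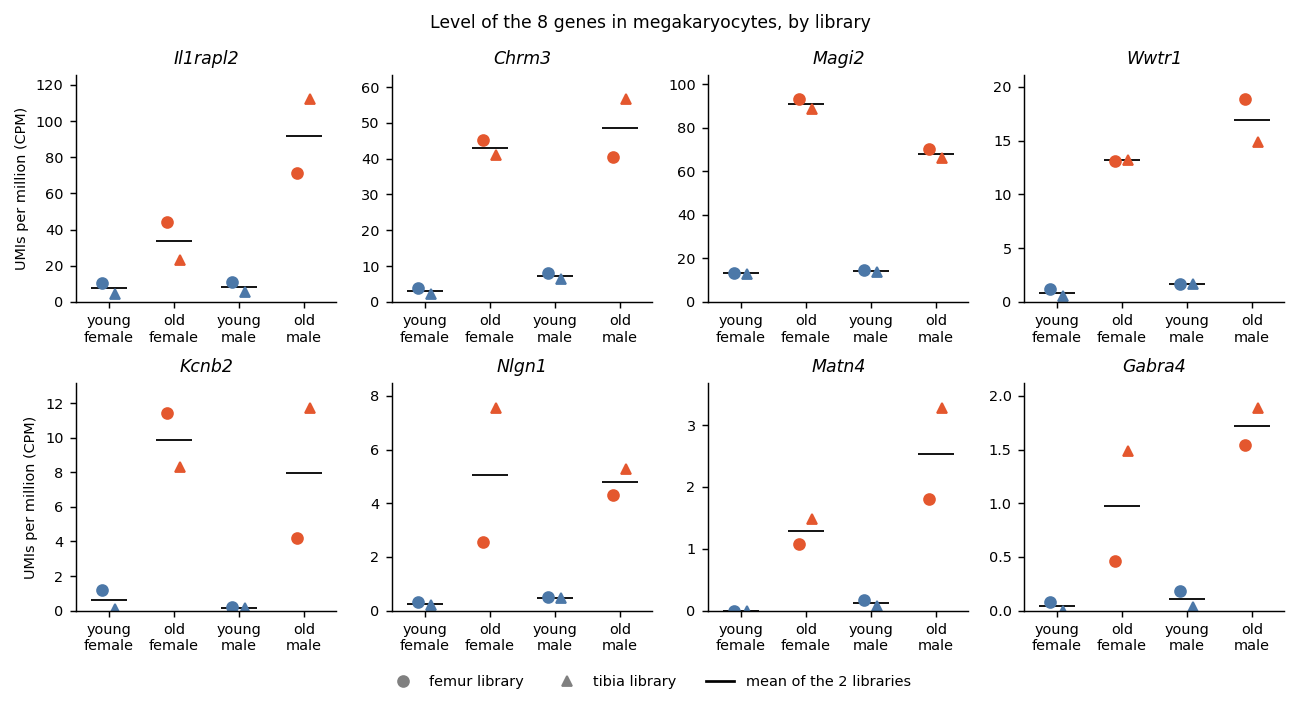
CPM of each gene in Mk of the 8 libraries (circles femur, triangles tibia; blue young, red old), with a line at the mean of the 2 libraries of a group; each panel has its own linear axis from 0. The 4 old libraries lie above the 4 young ones in every panel, with the widest gap between old males and old females for Il1rapl2.

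Most Mk lacked these transcripts, also in old mice. Among 3033 old Mk, Magi2 was found in 24.9%, Il1rapl2 in 18.9%, Wwtr1 in 16.6% and Chrm3 in 14.4%, and among 5616 young Mk in 10.7%, 2.94%, 1.85% and 4.22%. At least 5 UMIs were found in 11.0% of old Mk for Magi2, 9.56% for Il1rapl2, 6.50% for Chrm3 and 1.78% for Wwtr1, so that Wwtr1 was spread over many cells with few UMIs each. The 5% of old Mk with the most Il1rapl2 UMIs held 69.4% of them, with up to 176 in 1 cell. Kcnb2, Matn4, Nlgn1 and Gabra4 had a UMI in 3.20%, 3.00%, 3.03% and 1.91% of old Mk.

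Detection depends on depth, and the median Mk had 6768 and 10190 UMIs in young females against 25890 and 22960 in old females, and 25760 and 29690 in young males against 22640 and 6080 in old ones. Thinned to 1000 UMIs per cell, Il1rapl2 was found in 3.92% and 2.43% of Mk in old females against 0.479% and 0.268% in young females, and in 6.64% and 11.6% in old males against 0.737% and 0.384% in young males. Leaving out Mk under 1000 UMIs kept 626 of 919 Mk in the young female femur library and 989 of 1176 in the old male tibia library. It kept 1825 of 1832 in the young male tibia library. Magi2 was found in 5.22% to 7.48% of thinned old Mk and 0.938% to 1.21% of thinned young Mk, without overlap. Chrm3 gave 2.02% to 4.25% and 0.536% to 0.842%, and Wwtr1 1.04% to 2.99% and 0% to 0.402%. Of the 4 old libraries, the one with the shallowest Mk, from the tibia of males, had the highest thinned share of Il1rapl2, Chrm3 and Magi2.

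**Figure D3:**
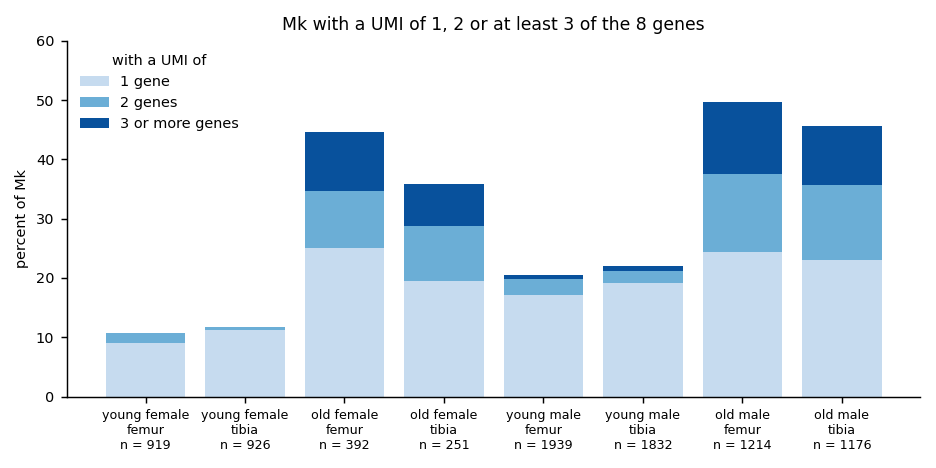
Share of Mk (percent, stacked bars from 0) with a UMI of exactly 1, exactly 2 or at least 3 of the 8 genes in each library; n is the number of Mk. Mk with 3 or more genes make up 7.17% to 12.1% of the old libraries and 0% to 0.819% of the young ones, with no correction for depth.

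Wwtr1, Magi2 and Chrm3 were more often found in old Mk that also had Il1rapl2. To hold depth alike, Mk with 10000 to 40000 UMIs were taken. In the old male femur library, Wwtr1 was found in 41.0% of 144 Mk with Il1rapl2 and in 13.1% of 603 without it, Magi2 in 53.5% and 21.1%, and Chrm3 in 33.3% and 10.8%. In the old male tibia library the shares were 42.7% and 10.5% for Wwtr1, 48.2% and 21.5% for Magi2 and 39.1% and 16.4% for Chrm3. The old female libraries had 30 and 12 such Mk with Il1rapl2, of which 63.3% and 33.3% had Chrm3, against 14.0% and 12.6% of the others. Median UMIs of Mk with Il1rapl2 were 22250 to 24760 in the 4 old libraries and those of Mk without it 22600 to 27080, so that the Mk with Il1rapl2 were not the deeper ones there. In the young male libraries, Wwtr1 was found in 12.5% of 32 and 21.1% of 38 Mk with Il1rapl2 and in 1.95% and 1.48% of the others, and those with Il1rapl2 were somewhat deeper (29270 against 24840 and 28330 against 26540 UMIs). Not every pair did so in young males, since Kcnb2 was in 0% of the 38 and 0.556% of the others in the tibia library, and Chrm3, outside the old-rich cluster described below, in 4.35% of 23 and 5.06% of the others in the femur library. Gabra4 and Nlgn1 were not examined in this way.

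Old Mk rich in Il1rapl2 had a lower sum of Mk markers and a higher sum of stem cell markers than Mk without it. In the 4 old libraries, the summed Mk markers stood at 3438, 3586, 7325 and 6737 CPM in Mk with at least 5 Il1rapl2 UMIs and at 4639, 5446, 11370 and 11150 CPM in those with none (female femur, female tibia, male femur, male tibia). The summed HSC/MPP markers stood at 10250, 8918, 9805 and 7481 CPM against 7911, 7658, 6561 and 4997. In the old male femur library, the 81 Mk of this depth with at least 5 Il1rapl2 UMIs had 4735 CPM of the platelet chemokine Pf4, 908 of the integrin subunit Itga2b and 854 of Vwf, against 8537, 1056 and 710 in the 603 Mk with none. Mecom, a stem cell transcription factor, stood at 1080 CPM in the former and 372 in the latter, and Hlf at 80.3 and 46.3. In the other old libraries Mecom stood at 943 to 1274 CPM in Mk with at least 5 UMIs and 344 to 409 in those with none, and Pf4 stood at 1100 to 4507 and 1717 to 8804 CPM. Itga2b stood there at 611, 641 and 750 CPM against 945, 747 and 823 (female femur, female tibia, male tibia). Vwf stood at 804, 870 and 743 CPM against 812, 741 and 585, so that not every Mk marker was lower. In both old male libraries Pf4 made up most of the summed Mk markers and most of the difference in that sum. The Mk compared here were chosen by Il1rapl2, and these values are given as a description.

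The 7 Mk clusters differed in these genes, and 1 cluster that made up more of the Mk in old libraries was the highest in each gene but Kcnb2. The 8 genes were chosen as higher in old Mk. This old-rich cluster was picked as the Mk cluster with the largest ratio of old to young cells, so that its larger share of old Mk follows from the choice, and its high levels of the 8 genes follow in part. It held 860 cells, which were 14.3% and 16.3% of Mk in old females and 31.5% and 23.6% in old males, against 0.979% and 0.756% in young females and 2.32% and 2.29% in young males. Its leading genes were those of Mk (Med12l, Vwf, Trpc6, Dlg2 and Pf4 among them), with no stem cell marker among 10. The summed HSC/MPP markers were nonetheless higher in it than in the other Mk of 7 of 8 libraries, such as 7926 and 7640 CPM against 5328 and 5974 in old females and 7803 and 5709 against 5799 and 4104 in old males. The summed Mk markers were lower in it in the 4 old libraries (6853, 5979, 11350 and 11580 CPM against 9044, 8127, 12540 and 12920). In young females they were higher in it (9884 and 13370 CPM against 9463 and 10960, from 9 and 7 cells of the cluster). Young males had 6376 CPM against 7486 in the femur and 8456 against 8014 in the tibia library. Over all libraries the old-rich cluster had 163 CPM of Il1rapl2, 143 of Magi2, 104 of Chrm3 and 30.1 of Wwtr1, whereas the largest Mk cluster (2303 cells) had 2.21, 11.9, 4.51 and 0.989. These levels pool young and old cells, and 757 of the 860 cells were old, so that the gap also holds a difference in age. Kcnb2 was highest, at 23.2 CPM, in a cluster of 1306 small Mk with a median of 1394 UMIs per cell and 16.4 CPM in the old-rich cluster.

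In young males the 45 and 42 cells of the old-rich cluster already had 213 and 121 CPM of Il1rapl2, within or above the range of the old libraries (105 to 183). Chrm3 in it was lower in young males (81.0 and 54.9 CPM) than in old ones (95.5 and 93.0) and old females (212 and 154). Outside this cluster, old Mk still held more of most members. Magi2 stood at 61.4 and 38.0 CPM in old females and 33.0 and 43.1 in old males, against 11.1 to 13.3 in the young libraries, and Wwtr1 at 5.83 to 9.98 against 0.416 to 1.39. Il1rapl2 overlapped there, since the old female tibia library (1.32 CPM) lay below every young one, and Kcnb2 did, with 0.471 and 0 CPM in old and 1.21 and 0.0692 in young females. With the cluster left out, an alternative chosen after seeing the data, the log2 differences of 7 members were 1.88 (Magi2), 1.89 (Chrm3), 2.23 (Kcnb2), 2.34 (Nlgn1), 2.47 (Il1rapl2), 3.15 (Wwtr1) and 5.65 (Matn4), and Gabra4 did not pass the filter. Genes called in either direction fell from 2005 to 815.

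**Figure D4:**
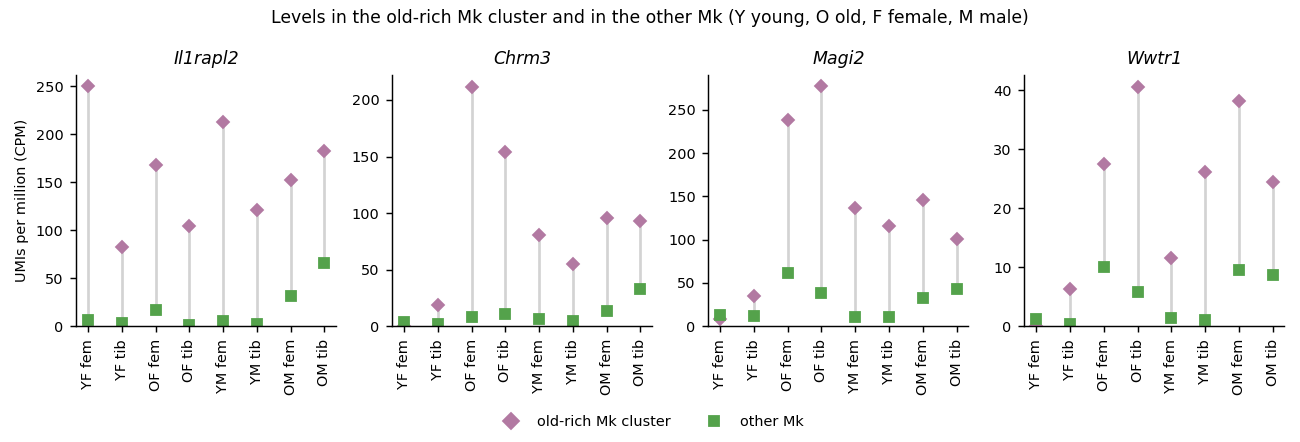
CPM of Il1rapl2, Chrm3, Magi2 and Wwtr1 in the old-rich Mk cluster (diamonds) and in the other Mk (squares) of each library, on linear axes from 0; the young female points of the cluster rest on 9 and 7 cells. Apart from young females, the cluster lies above the other Mk in each panel, and for Wwtr1 and Magi2 the other Mk are higher in old than in young libraries.

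Markers of several cell types differed with age in Mk alongside the 8 genes. Of the 17 HSC/MPP markers tested, 5 were called higher in old Mk (Mecom, Mllt3, Cd34, Fgd5 and Mycn) and 1 lower (Adgrl4), beside 7.15% of all genes tested called higher. The median log2 difference of these 17 markers was 0.03, beside -0.02 over all genes tested. Of the 13 Mk markers, 5 were called higher (Ppbp, Vwf, Treml1 and Itgb3 among them) and 0 lower. The HSC/MPP markers summed to 5435 to 6643 CPM in young Mk and 4736 to 6456 in old Mk, with Procr at 0 in the old female femur library. No marker of granulocytes and their progenitors, B cells or basophils was called higher. Called lower were 8 of 9 B cell markers (summed level 36.2 to 271 CPM in young and 12.0 to 101 in old), 6 of 7 immature and 5 of 8 mature neutrophil markers (31.3 to 368 and 28.2 to 57.9 CPM, 135 to 1005 and 131 to 268 CPM), 5 of 9 GMP markers and 6 of 7 basophil markers, beside 1007 of 13950 genes. Of the 9 endothelial/stromal markers tested, 1 (Col1a2) was called higher, and their sum was 104 to 123 CPM in young and 91.4 to 145 in old Mk. With the 8% of cells of highest doublet score in each library removed, an alternative added after seeing the data, the members' log2 differences in Mk ran from 2.42 (Magi2) to 6.06 (Matn4). Among Mk without a UMI of any stem cell marker, 486 cells, none of the 8 genes passed the filter, so that this alternative gave no value. The part of other cells' RNA, stem-like cells included, in the Mk values was not tested.

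In HSC/MPP-like cells, old libraries held more of most of the 8 genes. The genes were chosen partly for their level in this class, of which 268 of 314 cells were old, so that these differences are given without a test. In the edgeR fit 7 of the 8 genes passed the filter on low counts, Kcnb2, Matn4, Nlgn1 and Wwtr1 of them through the old libraries, and Gabra4 did not. All but Nlgn1 of the 7 were called higher, where 174 of the 7387 genes tested (2.36%) were called higher in old and 17 lower, and nothing is read from this count. The median gene was 0.26 higher in old on the log2 scale, and 0.14 with upper-quartile scaling. Since the young female libraries held 1 and 3 of these cells, the 4 male libraries were also fitted alone, an alternative chosen after seeing the data, in which 86 of 9397 genes (0.915%) were called higher and the median difference was 0.02.

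Il1rapl2 stood at 580 and 621 CPM in HSC/MPP-like cells of young males (femur, tibia) and at 2472 and 1933 in old males. Old females had 2822 and 2800 CPM, and the young female libraries had 1745 and 95.1, which rest on 26 and 3 UMIs. The log2 difference was 2.22 (SE 0.32), and 1.97 in males alone (SE 0.29). It depended on the young female libraries, with 3.66 without the femur and 1.69 without the tibia library.

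Chrm3 stood at 209 and 241 CPM in young males and at 790.5 and 612 in old males, 2129 and 2022 in old females and 336 and 285 in young females. No old library overlapped a young one, but the share of all genes with this order in these cells was not counted. The log2 difference was 2.49 (SE 0.28), and 1.74 in males alone (SE 0.24). Magi2 stood at 405 and 273 CPM in the young male libraries, 859 and 776 in those of old males, 201 and 285 in young females and 1535 and 1483 in old females. Its log2 difference was 2.17 (SE 0.28), and 1.33 in males alone (SE 0.26).

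Kcnb2 was seen in a single young stem-like cell. In young HSC/MPP-like cells it had 13 UMIs, all in 1 cell of the young male femur library (25.9 CPM), and 0 UMIs in the other 3 young libraries. In old males it stood at 748 and 524 CPM and was found in 45.4% and 56.2% of cells, and in old females at 2063 and 487 CPM. The pooled level of old males was 35.9-fold that of young males. No fold difference is given in females, because the 0 UMIs of young females rest on 1 and 3 cells. Even among old stem-like cells only 51.9% held Kcnb2, and the 5% of cells with the most UMIs held 45.2% of them.

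Matn4 and Wwtr1 had fewer UMIs. Matn4 had 1 and 3 UMIs in young males (1.99 and 13.9 CPM) and 194 and 133 in old males (108 and 94.0 CPM), an 18.2-fold difference of the pooled levels, and 47.1 and 72.6 CPM in old females. Wwtr1 stood at 45.9 and 27.8 CPM in young males, 91.2 and 81.3 in old males and 113 and 114 in old females, with a log2 difference of 1.21 (SE 0.31) in males alone. Both had 0 UMIs in the young female libraries, which at 3 counts per library allows up to 201 and 95.1 CPM, so that no difference can be given in females for Matn4. Nlgn1 had 1 UMI in young and 80 in old HSC/MPP-like cells, of which the old female femur library had 0. Gabra4 had 3 UMIs in young and 50 in old cells.

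**Figure D5:**
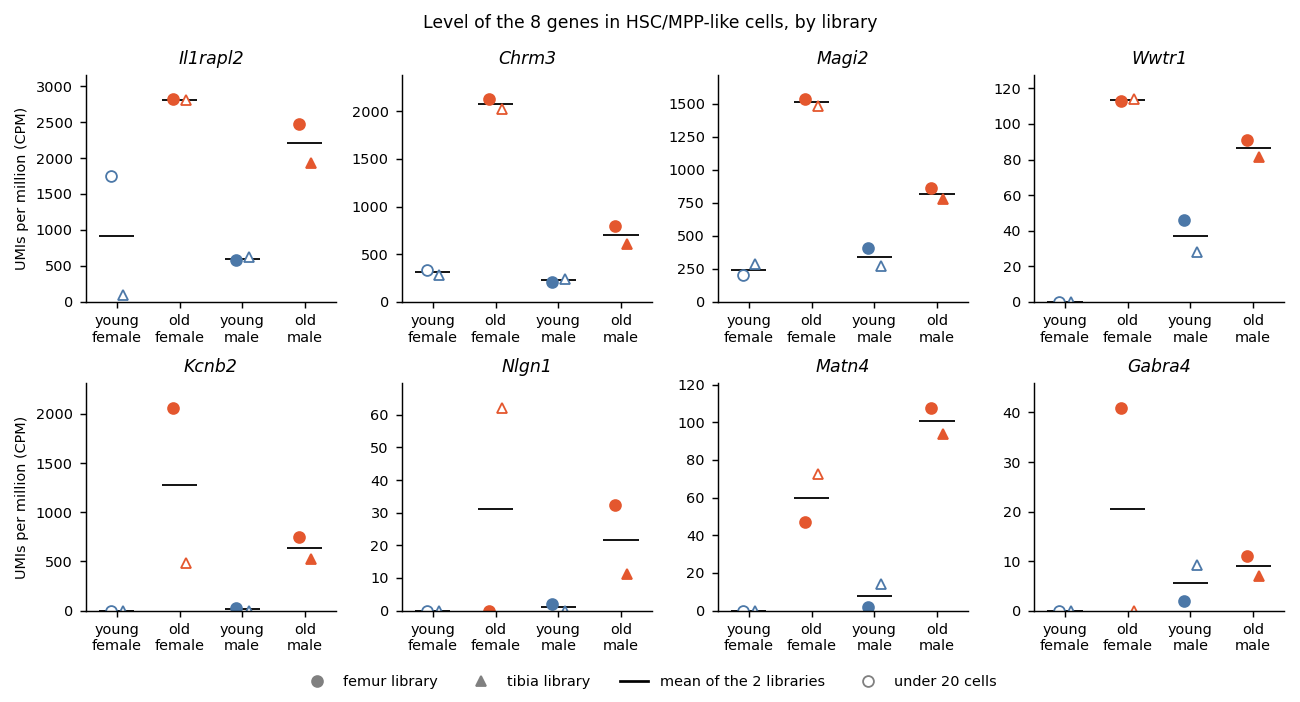
CPM of each gene in HSC/MPP-like cells of the 8 libraries (circles femur, triangles tibia; blue young, red old; open symbols, under 20 cells), with a line at the mean of the 2 libraries and linear axes from 0. Chrm3, Magi2 and Kcnb2 are higher in each old library than in every young one, an order whose share over all genes was not counted. The young female points of Matn4 and Wwtr1 at 0 allow up to 201 and 95.1 CPM, and for Il1rapl2 the young female femur point at 1745 CPM is a single cell.

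Per cell, old stem-like cells carried several of the genes at once. At least 3 of the 8 genes had a UMI in 96.0% of 25 and 100% of 6 such cells in old females and in 90.8% of 141 and 92.7% of 96 in old males, against 34.5% of 29 and 23.1% of 13 in young males. The median cell differed in depth between libraries, and with cells thinned to 1000 UMIs Il1rapl2 was found in 79.4% and 76.0% of old male cells and 24.1% and 46.2% of young male cells, and Kcnb2 in 26.2% and 24.0% against 0% and 0%. The young male shares rest on 29 and 13 cells.

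Sex and bone were compared in Mk. The age difference in males minus that in females did not pass the threshold for any of the 8 genes (edgeR, 1784 or 12.8% of the genes tested were called). The nearest was Magi2, at -0.42 (SE 0.14, adjusted p = 0.0735), followed by Chrm3 at -0.98 (SE 0.37, adjusted p = 0.108) and Il1rapl2 at 1.36 (SE 0.62, adjusted p = 0.166). Averaged over age, Wwtr1 (log2 male minus female 0.73, SE 0.18, adjusted p = 0.0249) and Chrm3 (0.79, SE 0.19, adjusted p = 0.0234) were higher in males by edgeR, where 10.1% of all genes tested were. For Wwtr1 the male libraries lay above the female ones within each age, and for Chrm3 they did so in young Mk, while the old male femur library lay below both old female ones. The share of all genes with these orders was not counted, and nothing is read from them. Both calls were lost without the young female tibia, old female tibia or young male femur library, with cells thinned (adjusted p 0.968 and 0.709), and for Wwtr1 also without the young male tibia library (adjusted p 0.0636 to 0.0924 over these libraries for the 2 genes), and for Wwtr1 without the old-rich Mk cluster (adjusted p 0.265). Each sex rests on 2 pools. Between tibia and femur, 0 genes (0%) were called by edgeR, with 424 at an unadjusted p under 0.05 and 3 called by DESeq2. Among the 8 genes the differences ran from -0.43 (Il1rapl2, SE 0.29) to 0.53 (Nlgn1, SE 0.32).

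Outside Mk and stem-like cells the genes differed in their patterns. In endothelial/stromal-like cells Wwtr1 was found in 22.8% to 69.3% of cells per library. Females had 156 and 168 CPM when young and 351 and 312 when old, and males had 243 and 233 when young and 320 and 224 when old, so that the ages overlapped in males and did not in females. Chrm3 averaged 32.2 CPM in these cells of old females (47 UMIs) and 14.9 in old males (24 UMIs, SD 17.3). Young females had 0 CPM, which allows up to 6.13 at 3 counts, and young males 0.873 (3 UMIs). Only 12 of 861 endothelial/stromal-like cells held Chrm3. Magi2 had no such order by age, with its highest mean in young males (137 CPM). No test was made of these genes there, and the share of all genes with such orders was not counted. In mature neutrophil-like cells Wwtr1 had 1.89 and 3.09 CPM in young females and 1.08 and 1.99 in young males, from 8 UMIs in all, against 17.5 and 15.7 in old females and 10.4 and 9.71 in old males, from 33 UMIs. Its old and young libraries did not overlap there, no test was made, and the share of all genes with this order was not counted. Chrm3 in the same cells ran from 26.0 to 40.2 CPM in young and 15.7 to 41.4 in old libraries, and the ages overlapped. Gabra4 in plasma cell-like cells stood at 9.34 and 5.00 CPM in young females, 31.5 and 41.3 in young males, 65.4 in the old female femur library and 21.4 and 17.2 in old males, found in 3.45% to 29.0% of cells in these 7 libraries, with no order by age.

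Relatives of the members mostly stayed low or did not pass. The other muscarinic receptors (Chrm1, Chrm2, Chrm4 and Chrm5) reached at most 0.442 CPM in any Mk library, and none was tested. Of the other Kv2 and silent potassium channel subunits 4 were tested in Mk and 0 called, as for 1 of the other matrilins (Matn2, 0.96, adjusted p = 0.081 by edgeR) and 1 of the other GABA-A subunits (Gabrb1). In the interleukin-1 receptor family, Il1rapl1, the closest relative of Il1rapl2, was called higher in old Mk by edgeR (log2 difference 1.37, SE 0.38, adjusted p = 0.0401). Its ages overlapped there, with 1.425 CPM in the young male femur and 1.335 in the old female tibia library. It was also called in HSC/MPP-like cells (adjusted p = 0.00212), with 37.9 to 181 CPM in the 4 libraries with at least 20 cells. The young female libraries, of 1 and 3 such cells, had 0 CPM. The young male tibia library (97.3 CPM) lay above the old female tibia library (72.6 CPM). Sigirr rose in Mk by 0.28 (adjusted p = 0.0387), whereas Il18r1 (-1.39) and Il18rap (-1.10) fell, 2 up and 2 down of 9 tested.

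Among other scaffold genes, Magi1 rose in Mk by 0.58 (adjusted p = 0.00184 by edgeR) and Dlg4 by 0.31 (adjusted p = 0.0269), while Magi3 (-0.02) and Dlg1 (0.01) did not pass. In the Hippo pathway, 3 of 14 tested genes other than Wwtr1 rose in Mk and 1 fell. They were Tead2, a DNA-binding partner of TAZ (1.60, SE 0.23, adjusted p = 0.00232), the TAZ-binding protein Amotl2 (0.998, SE 0.12, adjusted p = 0.00069), the kinase cofactor Mob1b (0.32, adjusted p = 0.0299) and the kinase Lats2, which fell by 0.54 on the log2 scale (adjusted p = 0.0161). Yap1, the paralogue of TAZ, was at 0.348 to 0.932 CPM in Mk and did not pass (0.06), and the target genes Ccn2 and Ankrd1 were at or near 0. In HSC/MPP-like cells 0 of 8 tested Hippo genes passed.

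A list of 26 measured genes known to rise in aged stem cells, which holds none of the 8, served as a reference. In HSC/MPP-like cells 17 of 24 tested rose and 0 fell, with a median log2 difference of 2.45 beside 0.26 over all genes. The young female libraries entered with 1 and 3 such cells and had 0 CPM of genes such as Nupr1, Mt1 and Neo1. The size of these differences is therefore uncertain, and no values in males alone are given for the list. In Mk 20 of 25 rose and 0 fell, with a median of 0.95 beside -0.02. The phospholipid scramblase family gene Plscr2 rose by 3.81 in Mk (SE 0.19, adjusted p = 4.34e-06 by edgeR), the netrin receptor family gene Neo1 by 2.67, Runx1t1 by 2.01, and the adhesion receptor gene Selp by 0.70. As the list was written with earlier results of these data known, it is not independent support.

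Genes with the most similar pattern were sought over 79 sums of library and class, with at least 20 cells each, by Pearson's r of log2(CPM + 1) among 10855 genes. These sums share libraries and classes, and the values are a description. Kcnb2 was closest to Lhcgr (r = 0.87), Pgr (0.84) and Rorb (0.80), and Il1rapl2 to Rarb (0.80), Lhcgr (0.80) and Kcnb2 (0.80). Chrm3 was closest to Kcnb2 (0.74), Tmem132b (0.71) and Lhcgr (0.70). Without the stem-like sums these values fell, to 0.53 for Kcnb2 with Lhcgr and 0.34 for Chrm3 with Lhcgr. Magi2 was closest to Runx1t1 (0.90), B3galt1 (0.89) and Mill2 (0.88), Matn4 to Klhl4 (0.81), Hoxb8 (0.79) and Plscr2 (0.77), and Wwtr1 to Prkd1 (0.93), Crispld1 (0.92) and Fgd5 (0.92). Nlgn1 followed Serpinh1 (0.91), Rcan2 (0.89) and Pxdn (0.89), and Gabra4 followed Cd28 (0.81), Kbtbd12 (0.79) and Epcam (0.78). The first of these pairs stood at 0.82 (Magi2), 0.74 (Matn4), 0.92 (Wwtr1), 0.92 (Nlgn1) and 0.84 (Gabra4) without the stem-like sums.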

How the data were processed

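The deposited matrices hold UMI counts per gene and barcode, made by the authors with Cell Ranger 7.2.0 and not normalized. The labels name mm10 and GRCm39, and the annotation release and intron setting are not given in the sources used here. Groups followed the labels, and the deposited names of the femur matrices, which read fibula, were not used. Per the study's methods, cells with at most 15% mitochondrial UMIs and 500 to 12000 genes were kept (23222 of 48290 barcodes). Cells were clustered in Seurat 5.3.0 without integration across libraries (2000 variable genes, 30 principal components, 20 neighbours, Louvain resolution 0.8). Clusters were named by their leading marker list, where at least 3 markers stood over 1.5-fold up. The 8 genes were left out of the variable genes, of which 6 were among them. Doublets were scored with Scrublet (scanpy 1.11.5) and kept.

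Counts were summed per library and class, filtered with filterByExpr, scaled by TMM and tested with edgeR 4.0.16 (R 4.3.3; quasi-likelihood, 4 groups in 1 fit, bone added for tibia minus femur) with Benjamini-Hochberg adjustment over all genes tested and a threshold of 0.05. For the members, age is given without a test in Mk and, unlike first planned, in HSC/MPP-like cells. The test was tried on simulated counts first. The members, the gene lists and the tests were chosen with earlier results of these data known. Genes named are the members, the fixed family and pathway lists and, per member, the 3 genes of the most similar pattern among genes averaging at least 5 CPM. The labels carry no replicate numbers. The alternatives tried were upper-quartile scaling, DESeq2 1.42.0, all genes without the count filter, bone as a block, Scrublet calls removed, limits of 10% mitochondrial UMIs and 1000 genes, cells thinned to 1000 UMIs, the members kept for clustering, Mk without stem marker UMIs, Mk clusters not led by a stem marker and each library left out. Added after seeing the data were the 8% highest doublet scores removed, Mk without the old-rich cluster and males only for HSC/MPP-like cells. Cells under 1000 UMIs were left out of the thinned alternative. Floors of 3 counts cover counting error only. Some genes of the fixed lists are not reported here.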

Additional observations from a re-analysis of the deposited data

How the results depend on the processing

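No member's age difference in Mk or in HSC/MPP-like cells changed direction under any alternative that gave a value, which their choice made likely. In HSC/MPP-like cells the log2 difference ran from 1.69 to 3.69 for Il1rapl2, 1.74 to 3.34 for Chrm3 and 1.33 to 3.16 for Magi2 over 18 alternatives. In Mk 14 of 147 age values moved by more than the spread between bones. Of the values for male minus female, 10 of 38 lost their call. Thinned cells gave no value for Kcnb2, Matn4, Nlgn1 and Gabra4 in Mk, nor for Matn4, Wwtr1, Nlgn1 and Gabra4 in HSC/MPP-like cells. The causes were not tested.

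Counts of genes called depended more on the processing. For age in Mk (2005), they were 179 with thinned cells, 37 among Mk without a stem marker UMI, 815 without the old-rich cluster, and 930 (young male tibia) to 2438 (old male tibia) with 1 library left out, and 1049, 970, 1077 and 984 without the femur or tibia library of young females, the tibia of old females or the femur of young males. For age in HSC/MPP-like cells (191), they were 103 with DESeq2, 10 with thinned cells, 95 without the highest doublet scores, 119 in males alone, and 43 (young female tibia) to 274 (old female tibia) with 1 library left out, with 96 without the young female femur library. For the sex difference of the age change (1784), they were 1160 with the stricter cell filter, 327 with thinned cells, 148 without stem marker UMIs, and 186 to 3435 with 1 library left out. For male minus female (2499), they were 877 with the stricter filter, 442 thinned, 1 without stem marker UMIs, and 489 to 4057 with 1 library left out. Each library but that of the old female femur moved both of these counts by over 1.5 times. For tibia minus femur (0), they were 3 with DESeq2, 9 without a filter on low counts, 10 thinned, and 0 to 3 with 1 library left out. Fewer cells or UMIs entered the thinned and stem-marker alternatives by construction. No Mk cluster was led by a stem marker, so that this alternative equals the values above. The age comparison in GMP-like cells was not run, because the old female libraries held 4 and 5 such cells. Tibia and femur were compared within pools. Age and sex could not be paired, because each pool held mice of 1 age and 1 sex, and bone as a block changed neither call for sex.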

Other observations

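In plasma cell-like cells of young females, Il1rapl2 had 47 UMIs in the femur library and 193 in the tibia library, from 2 cells and 1 cell, and at most 11 in any other library. In B cell-like cells of the old female femur library, Gabra4 stood at 27.6 CPM from 6 UMIs in 1 of 12 cells. Kcnb2 reached 49.5 CPM in endothelial/stromal-like cells of the old male femur library, found in 1.54% of 130 cells, and had 0 UMIs in 6 of the other 7 libraries.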
